A study of Arabidopsis thaliana with 6 samples.

Results

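IQD21 (AT3G49260) and IQD30 (AT1G18840) are genes of the IQD family, and they were chosen by name because their levels were higher in stems treated with NPA. They are 2 of the 15 IQD genes that had a probe set of their own, and 2 of 13355 genes measured in all. The annotation lists 33 genes whose symbol is IQD and a number, and the other 18 were not analysed here. Each of the 15 genes was represented by 1 probe set, a short group of probes for 1 transcript, and none of these carried a suffix that marks probes shared by several transcripts. Whether probes of 1 IQD gene bind transcripts of another was not tested.

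The samples were 6 preparations of total RNA from stem tissue of wild-type Arabidopsis thaliana plants of the Col strain, each put on 1 Affymetrix array. Plants had 3 weeks of short days with 8 hours of light and were then moved to long days with 16 hours of light. Stem pieces of 3 mm, cut 2.5 cm above the base, were taken after 7 days of treatment. The NPA group of 3 samples had 10 mg per g of NPA, which blocks the polar transport of auxin, and the mock group of 3 samples is mock-treated by its titles and treatment labels. The treatment protocol names NPA for every sample, mock included, and the make-up of the mock is not described. The study looked for genes of auxin-induced cambium formation, so NPA against mock is its 1 comparison.

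IQD proteins are a plant family named for a domain of repeated IQ motifs, short stretches that bind calmodulin, the protein that senses calcium in the cytoplasm. Many of them sit on cortical microtubules or at the plasma membrane, where they act as scaffolds. Cortical microtubules guide the cellulose synthase complexes, so members of the family affect cell shape and the pattern of the cell wall, including that of xylem vessels. The separate roles of IQD21 and IQD30 are not described here.

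IQD21 had log2 values of 5.49, 5.35 and 5.47 on mock arrays 1, 2 and 3, and of 6.35, 6.68 and 6.22 on NPA arrays 1, 2 and 3. All 3 NPA values lay above all 3 mock values, with a gap of 0.73 between the highest mock and the lowest NPA array. The mean was 5.44 ± 0.08 in mock and 6.42 ± 0.24 in NPA (SD, n = 3 each), a log2 difference of 0.98 or 1.97-fold. The NPA arrays were spread over 0.46, against 0.14 for the mock arrays, and NPA array 2 stood highest.

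IQD30 had log2 values of 6.84, 6.64 and 6.77 on mock arrays 1, 2 and 3, and of 7.37, 7.61 and 7.39 on the NPA arrays. These groups did not overlap either, with a gap of 0.54. The mean was 6.75 ± 0.10 in mock and 7.45 ± 0.13 in NPA (SD, n = 3 each), a log2 difference of 0.71 or 1.63-fold. No test is given for IQD21 or IQD30, since this difference is what chose them. Over all 22746 probe sets tested, 14.8% had groups that did not overlap with NPA higher, and 280 probe sets had a difference as large as that of IQD21 or larger and 631 as large as that of IQD30.

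**Figure D1:**
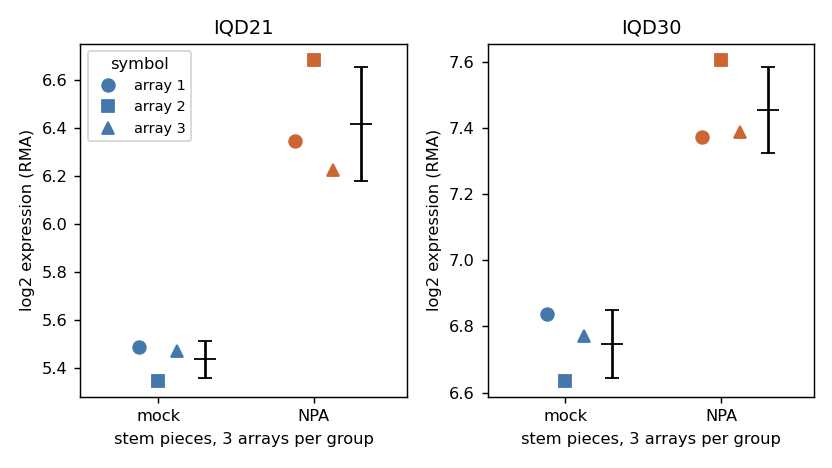
Log2 expression of IQD21 (left) and IQD30 (right) in mock and NPA stem pieces. Symbols are the 3 arrays of a group, and the black marks give the mean and SD. In both genes the 3 NPA arrays lie above the 3 mock arrays, and mock array 2 is the lowest and NPA array 2 the highest.

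Both genes had their lowest value on mock array 2 and their highest on NPA array 2. Of the other 13 IQD genes, 2 had this order within the groups, IQD31 and IQD24, and 8.36% of all probe sets tested had it. Both genes lay above the lower quartile of every array, which ran from 4.16 to 4.31, so neither was among the dimmest probe sets. In pieces of a whole organ, more cells that express a gene and more RNA of it per cell cannot be told apart. Across the 6 arrays, mock array 1 and NPA array 3 stood apart from the other 4 on the second principal component, which held 21.9% of the variance. With these arrays left out the difference was 2.15-fold for IQD21 and 1.72-fold for IQD30. The medians of the deposited arrays ran from 6.18 to 6.31 in mock and from 6.32 to 6.39 in NPA, so they were higher in NPA. Setting the medians of the arrays equal lowered every difference by 0.11, to 0.87 for IQD21 and 0.60 for IQD30 on the log2 scale. The 3' minus 5' difference of the GAPDH control, which grows as RNA breaks down, was 1.63 ± 0.07 in mock and 1.61 ± 0.07 in NPA (SD, n = 3 each).

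Among the other 13 IQD genes, IQD31 and IQD33 rose in NPA and none fell. These genes were taken by symbol and not by value, so they were tested with limma over all probe sets, and called at an adjusted p under 0.05. IQD31 (AT1G74690) had log2 values of 7.93, 7.81 and 7.89 on the mock arrays and of 8.45, 8.68 and 8.41 on the NPA arrays. The groups did not overlap, and the log2 difference was 0.64 ± 0.11 (SE, limma, adjusted p = 0.0229). This is 1.56-fold, close in size to that of IQD30.

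IQD33 (AT5G35670) had log2 values of 3.99, 4.12 and 3.99 in mock and of 4.52, 4.62 and 4.66 in NPA. Its groups did not overlap, and the log2 difference was 0.56 ± 0.09 (SE, limma, adjusted p = 0.0231). Its mock values lay under the lower quartile on all 3 mock arrays, so a fold over them is not exact. When the medians of the arrays were set equal both genes lost their call, with adjusted p = 0.0842 for IQD31 and 0.0825 for IQD33. After quantile normalization once more both kept it (limma, adjusted p = 0.0458 for IQD31 and 0.0241 for IQD33). IQD31 was called with NPA array 3 left out, but not without any of the other 5 arrays in turn (adjusted p from 0.0435 to 0.101), and IQD33 was not called without any 1 of the 6 (adjusted p from 0.0580 to 0.0897).

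The 2 called genes were 15.4% of the other 13, where 3.00% of all probe sets were called, 2.76% as higher and 0.242% as lower. With arrays centred on their medians 0 of the 13 were called by limma, while 4 of the 13 had an unadjusted p under 0.05 on the deposited values, as had 16.3% of all probe sets. The groups did not overlap, with NPA higher, in 4 of the 13, or 30.8%, against the 14.8% of all probe sets. The median difference of the 13 was 0.08, and that of all probe sets was 0.016. A mean higher in NPA was seen in 11 of the 13 and in 53.9% of all probe sets.

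IQD32 (AT1G19870) and IQD28 (AT1G14380) were the other genes whose groups did not overlap. The mean of IQD32 was 7.54 ± 0.19 in mock and 7.97 ± 0.10 in NPA (SD, n = 3 each), and the difference was 0.43 (limma, adjusted p = 0.130). IQD28 had means of 8.83 ± 0.11 in mock and 9.18 ± 0.16 in NPA (SD, n = 3 each), and the difference was 0.35 (limma, adjusted p = 0.190). Neither passed the test.

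IQD23 (AT5G62070) had log2 values of 4.41, 4.88 and 4.98 in mock and of 5.46, 5.66 and 4.81 in NPA. NPA array 3 lay within the mock values, so the groups overlapped, and the difference of 0.56 ± 0.24 did not pass the test (SE, limma, adjusted p = 0.310). The other 8 genes had overlapping groups and differences from -0.07 to 0.11. These were IQD15, IQD16, IQD18, IQD19, IQD22, IQD24, IQD26 and IQD27. IQD26 had the lowest difference, -0.07 ± 0.14 (SE, limma, adjusted p = 0.852). IQD16 encodes a microtubule-localised member and differed by 0.04 ± 0.16 (SE, limma, adjusted p = 0.945). IQD19 and IQD27 lay under the lower quartile on all 6 arrays, and IQD15 and IQD22 on 4 of 6, so a change in these 4 genes may have gone undetected.

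**Figure D2:**
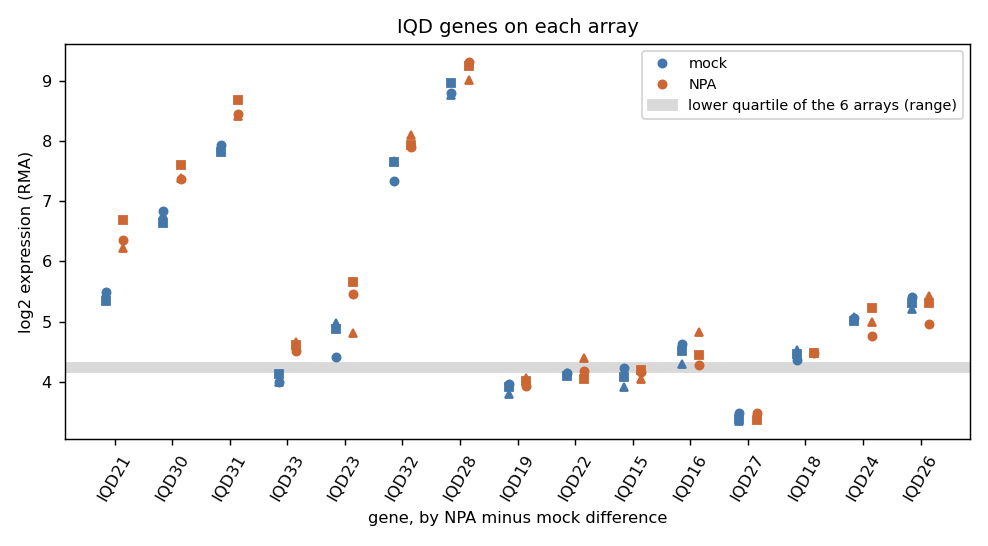
Log2 expression of the 15 measured IQD genes on each array, with mock at the left and NPA at the right of each gene, and circles, squares and triangles for arrays 1, 2 and 3. The grey band is the range of the lower quartiles of the arrays, 4.16 to 4.31, and IQD19 and IQD27 lie under it. Signals of different probe sets do not give the order of transcript levels.

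**Figure D3:**
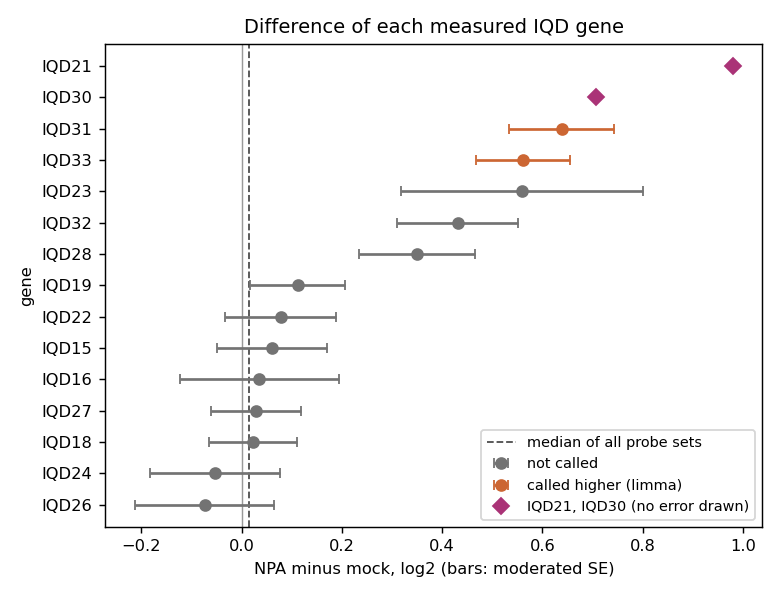
NPA minus mock difference on the log2 scale of each measured IQD gene, with the moderated standard error of limma except for IQD21 and IQD30, which are shown with no error because this difference chose them. The dashed line is the median of all probe sets, 0.016. IQD31 and IQD33 are called higher, and 8 genes lie between -0.07 and 0.11.

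The genes whose pattern over the 6 arrays was most like that of IQD21 or IQD30 were found by the root mean square difference between log2 values, each less the gene's own mean. The measure was computed for 13354 other genes, and it follows the group difference, which chose IQD21 and IQD30. IQD31 was the second nearest gene to IQD30, at 0.04, and the nearest was AT1G72250, also at 0.04. AT1G72250 lay under the lower quartile on all 3 mock arrays, so its distance is not exact. The median distance of all genes from IQD30 was 0.39, and 411 genes lay within 0.2. The other nearest genes to IQD30 were AT5G09300, AT1G65230 and AT1G22170, at 0.05 to 0.07. IQD33 was number 113 in the order of distance from IQD30 and IQD21 was number 137, at 0.15.

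The nearest genes to IQD21 were AT2G04850, IRX15, AT1G67510, AT5G48500 and AT1G56720, at 0.07 to 0.10. IRX15 encodes a protein needed for xylan, a polymer of secondary walls. It had log2 values of 8.35, 8.20 and 8.12 in mock and of 9.08, 9.48 and 9.04 in NPA, with NPA array 2 highest as in IQD21. The median distance of all genes from IQD21 was 0.53, and 92 genes lay within 0.2. IQD30 was number 34 in this order, IQD31 number 60 and IQD33 number 264.

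**Figure D4:**
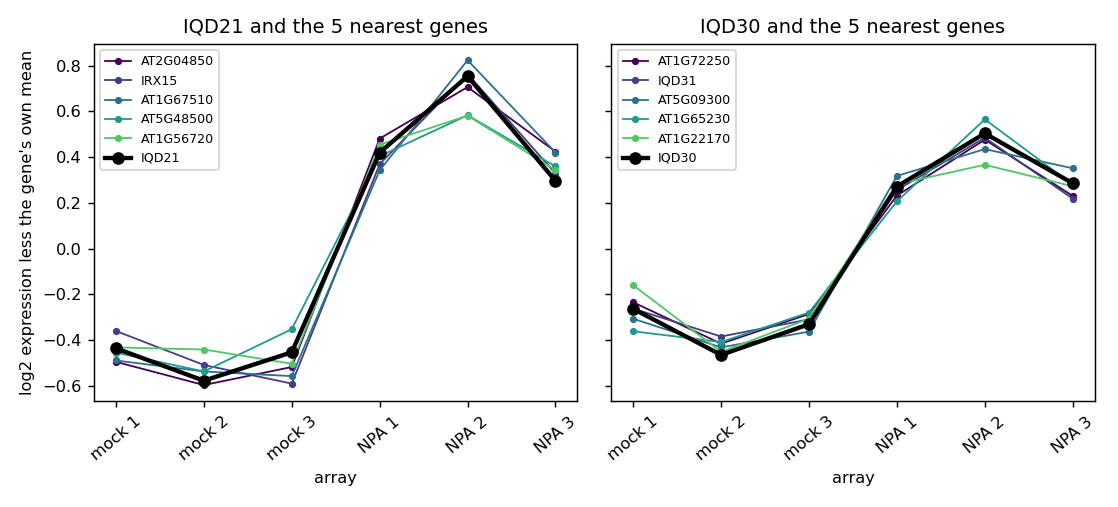
Log2 expression of IQD21 (left, black) and IQD30 (right, black) on the 6 arrays, each less the gene's own mean, with the 5 nearest genes in colour. All genes shown are low on the 3 mock arrays and high on the 3 NPA arrays, and IRX15 is near IQD21 and IQD31 near IQD30.

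Genes related to IQD proteins were taken from lists by symbol, and each gene was counted once. Of 52 measured genes in 8 lists, 11 rose and none fell, or 21.2% against 2.76% of all probe sets called higher. Their median difference was 0.19, against 0.016 for all probe sets. The lists were chosen with earlier results of these data known, and 3 of the 11 came from the xylan list. TRM82 and AT1G55460 are among the 52 by name only. The share thus describes these lists and is no test of them. The lists of calcium sensor kinases and of direct partners of IQD proteins had no measured gene. This does not show that the array lacks them, since 8730 probe sets listed no gene and 503 listed several.

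Calmodulin-like proteins bind calcium as calmodulin does, and 8 of 21 genes listed with the calmodulins were measured. None was called and none had an unadjusted p under 0.05 with limma. Over all probe sets 3.00% were called and 16.3% had such an unadjusted p. The median difference of the 8 genes was -0.29, with a range from -0.73 to 0.05. CML42 went from 9.43 ± 0.64 to 8.70 ± 0.60 (SD, n = 3 each), with overlapping groups (limma, adjusted p = 0.401). Of other proteins with IQ motifs 6 were measured, all myosin genes, and none was called with limma, while 1 had an unadjusted p under 0.05. That gene, XI-I, encodes a motor protein that moves along actin and differed by 0.32 ± 0.10 (SE, limma, adjusted p = 0.145).

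Tubulins are the subunits of microtubules, and 2 of 7 measured genes rose while none fell. Over all probe sets 2.76% were called higher and 0.242% lower. The alpha-tubulin gene TUA6 had means of 10.39 ± 0.13 in mock and 11.04 ± 0.08 in NPA (SD, n = 3 each), and rose by 0.65 (limma, adjusted p = 0.0206). The beta-tubulin gene TUB6 had means of 10.19 ± 0.14 and 10.82 ± 0.08 (SD, n = 3 each), and rose by 0.63 (limma, adjusted p = 0.0235). The median of the 7 was 0.44, and that of all probe sets was 0.016. Both calls were lost when the medians of the arrays were set equal (adjusted p = 0.0846 and 0.0962). TUA6 lost its call also without mock 2, mock 3, NPA 1 or NPA 2, and TUB6 unless the array left out was mock 1. The adjusted p then reached 0.0887 for TUA6 and 0.0966 for TUB6. TUB7 had the highest difference of the 7, 0.83, with groups that did not overlap, and was not called (limma, adjusted p = 0.0523). It was called higher without NPA 1 (adjusted p = 0.0486), without probe sets marked as shared (0.0492), among the brighter probe sets alone (0.0409) and in a trended and robust fit (0.0315).

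Of 23 measured genes listed as microtubule-associated proteins, 5 rose and none fell, with a median difference of 0.27. Over all probe sets 2.76% were called higher, and the median difference was 0.016. TRM26 had a difference of -0.55 with groups that did not overlap (limma, adjusted p = 0.111), and it was called lower when the medians of the arrays were set equal (adjusted p = 0.0483), after quantile normalization once more (adjusted p = 0.0482) and without mock 1 (adjusted p = 0.0329). SP1L5 and SP1L2, of the SPIRAL1 family that acts on cortical microtubules and directional growth, rose most. SP1L5 had means of 6.15 ± 0.18 in mock and 7.72 ± 0.21 in NPA (SD, n = 3 each), and rose by 1.56 (limma, adjusted p = 0.00322), and SP1L2 differed by 1.22 ± 0.12 (SE, limma, adjusted p = 0.00389). TRM15 and TRM19, of a family that recruits the TON1 protein to microtubules, rose by 0.83 and 0.97 (limma, adjusted p = 0.00833 and 0.0379). WDL3 (AT3G23090), of the WAVE-DAMPENED2 family of microtubule-binding proteins, rose by 0.78 (limma, adjusted p = 0.0138). SP1L5, SP1L2 and TRM15 were called without each single array, WDL3 was lost without mock 3 or NPA 2 (adjusted p up to 0.0637), and TRM19 unless the array left out was mock 3 (adjusted p up to 0.144). TRM19 also lost its call when the medians of the arrays were set equal (adjusted p = 0.0549). The list was matched by symbol and holds TRM82, named for tRNA modification and not for microtubules, which was not called.

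SPK1, an activator of ROP GTPases, was the only measured gene of their list and rose by 0.65 ± 0.13 (SE, limma, adjusted p = 0.0403). Its call was lost unless the array left out was NPA 3, and the adjusted p then reached 0.144, while it was 0.0981 when the medians of the arrays were set equal. COB, a membrane-anchored protein of oriented cellulose deposition, went from 9.45 ± 0.28 to 10.04 ± 0.22 (SD, n = 3 each) and did not pass the test (limma, adjusted p = 0.138). GH9A3, the other measured gene of that list, differed by 0.15, so 0 of 2 were called with limma. An unadjusted p under 0.05 was seen in 1 of the 2 and in 16.3% of all probe sets. Neither of the 2 genes matched as kinesins was called or had an unadjusted p under 0.05 with limma. They were KINESIN-12B and AT1G55460, which was matched through its synonym KIN17 and is not a kinesin motor. KINESIN-12B lay under the lower quartile on every array. Kinesin genes that carried other names were not matched, so these 2 genes do not speak for kinesins at large.

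**Figure D5:**
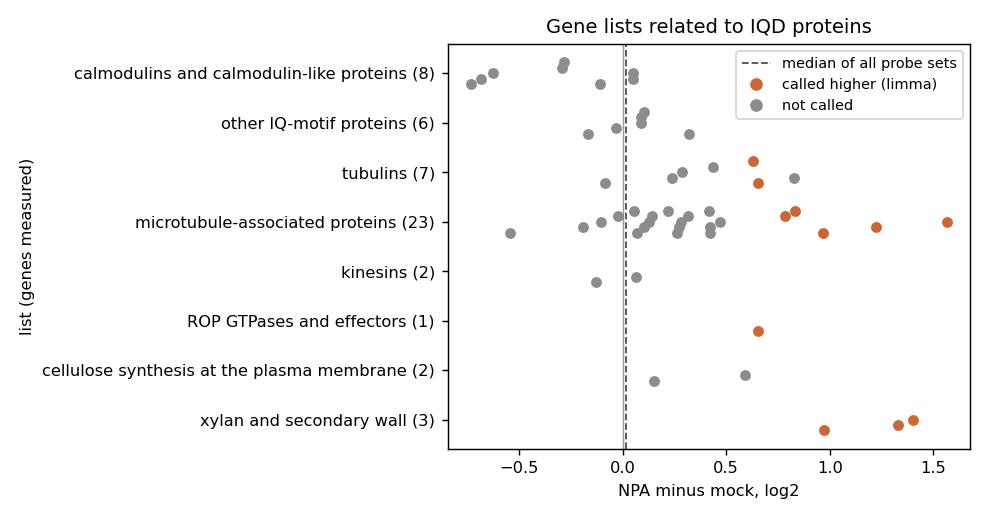
NPA minus mock difference on the log2 scale of each measured gene in the 8 related lists, 1 point per gene, spread in height only to separate points. The dashed line is the median of all probe sets, 0.016. Called genes, all higher in NPA, lie among tubulins, microtubule-associated proteins and xylan genes, and SPK1, the only measured gene of the ROP list, is called too. The calmodulin-like genes lie mostly to the left of 0.

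Markers of cell types were also taken by symbol from lists, chosen with earlier results of these data known. Of 15 listed markers of xylem and fibres, the 3 measured were GUT2 (IRX10), IRX15-L and IRX15. They rose in NPA by 1.40, 1.33 and 0.97 (limma, adjusted p = 0.00705, 0.00532 and 0.0138). IRX15 was not called without mock 2 or mock 3 (limma, adjusted p up to 0.0576). These 3 genes also make up the xylan list, so no other kind of xylem or fibre marker was seen. Their mean level on an array was 8.00 to 8.29 in mock and 9.22 to 9.67 in NPA. Of 4 measured cambium markers 1 rose and none fell, and of 4 phloem markers 2 rose and none fell, where 2.76% of all probe sets were called higher. The phloem marker SWEET11, a sucrose carrier gene, had a difference of -0.95 with groups that did not overlap (limma, adjusted p = 0.0909). None of the 4 markers of the green cortex and starch sheath was called, and they differed both ways. AT5G41920 (SCL23) had a difference of -0.51 (limma, adjusted p = 0.0594) and PRK one of 0.41 (limma, adjusted p = 0.347), both with groups that did not overlap. Of 5 genes matched as markers of epidermis and stomata none was called. One of these, FDH, is formate dehydrogenase by its synonyms and no epidermis marker, and the stomatal gene FMA (FAMA) had a difference of -0.23 with groups that did not overlap (limma, adjusted p = 0.303). The flower marker SPL was not called. The part of cell types in the higher values of the IQD genes was not tested.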

How the data were processed

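The deposited values are log2 expression values of 22810 probe sets on 6 arrays. The authors made them with RMA, a method of background correction, quantile normalization and summary per probe set, and the submitters' processing notes name RMA and limma with no version. RMA gives no detection call. Later filters and the probe set definitions were not given in the sources used. The number of arrays limits the precision. Groups came from the sample titles. Whether the 3 samples of a group are separate plants is not said, and p-values therefore cover the spread between these samples alone, which may be technical.

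Values were used as deposited. After 64 control probe sets were left out, 22746 were fitted in limma (version 3.58.1, R version 4.3.3) by lmFit and eBayes as NPA against mock. P-values were adjusted over all of them by the Benjamini-Hochberg method, and a call is an adjusted p under 0.05. The fit was tested on simulated data. Standard errors are limma's moderated ones. Genes were named through the platform table, with current symbols from RefSeq's TAIR10.1 annotation. A single gene was listed for 13513 probe sets, which stood for 13355 genes, several for 503 and none for 8730. For each gene the probe set with the highest mean over the 6 arrays was used. No coordinates and no sequences are given. Tables and plots used Python 3.11.15, pandas 2.3.3 and matplotlib 3.10.9.

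IQD21, IQD30, the lists and the tests were chosen with earlier results of these data known. The genes named were all measured IQD genes, up to 5 called members of each related list or, where none was called, the one with the highest mean, and the 5 nearest genes to each of IQD21 and IQD30. GH9A3, KINESIN-12B, TRM82, TRM26, TUB7 and the marker genes were named after their values were seen. The split of IQD genes by number and the arrays left out together were also chosen after the values were seen. Same-numbered samples did not deviate together (correlations of -0.26, 0.05 and 0.04), so replicate numbers were taken not to pair the samples.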

Additional observations from a re-analysis of the deposited data

How the results depend on the processing

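The differences of IQD21 and IQD30 were positive under every alternative that gave a value, but this sign is no test of them. Both genes were chosen for this difference, and their groups did not overlap, so leaving out arrays could not reverse it. Dropping probe sets marked as shared, or averaging where a gene has several, left both values unchanged, since each gene had 1 unmarked probe set. The differences ran from 0.85 to 1.08 for IQD21 and from 0.63 to 0.75 for IQD30 with single arrays left out. They were 0.88 and 0.61 after quantile normalization once more. The brighter probe sets alone did not hold IQD21, so that alternative gave no value for it. Of the other 13 IQD genes 2 were called, and 2 also after quantile normalization once more and in a trended and robust fit. With arrays centred on their medians, with the replicate block, at an adjusted p under 0.01, with a log2 difference of at least 1, or with mock 1 and NPA 3 left out together (an alternative added after the data were examined) 0 were called, with 1 of the 3 that remained among the brighter probe sets, and 0 to 1 with single arrays left out. Of the 52 related genes 11 were called, 7 with the replicate block and 7 without mock 1 and NPA 3, 5 at an adjusted p under 0.01, 4 with a log2 difference of at least 1, and 6 to 10 with single arrays left out. The genes lost without mock 1 and NPA 3 were WDL3, TRM15, TRM19 and TUB6. With arrays centred on their medians 8 were called and after quantile normalization once more 10, of which TRM26 was lower in both. Over all probe sets 683 were called, 449 with the replicate block, 397 without mock 1 and NPA 3, 225 at an adjusted p under 0.01, 255 with a log2 difference of at least 1 and 304 to 446 with single arrays left out. Stricter thresholds call fewer genes by construction. Fits with fewer arrays and the block leave fewer degrees of freedom. TRM26 gained a call as lower without mock 1 and TUB7 as higher without NPA 1 (limma, adjusted p = 0.0329 and 0.0486). The cause of the changes outside the stricter thresholds was not tested. Of all calls 91.9% were higher in NPA as deposited and 80.1% after centring. Replicate numbers are no known pairing, and with 3 against 3 arrays the block cannot move a difference.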

Other observations

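A split of the IQD genes by their number was noticed after the values were seen, and it has no test. It leaves out IQD21 and IQD30, which were chosen for being higher in NPA. IQD28, IQD31, IQD32 and IQD33 had groups that did not overlap, with NPA higher by 0.35 to 0.64 on the log2 scale. Groups apart with NPA higher were seen in 14.8% of all probe sets. In all 9 other measured genes, numbered from IQD15 to IQD27, the groups overlapped, and the differences ran from -0.07 to 0.56. The mock means of the first set were 4.03 to 8.83 and those of the second set 3.40 to 5.31, so signal moved with the split, and its part was not tested. IQD21, numbered among the second set, had groups that did not overlap and so goes against the split.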
